A study of Homo sapiens with 18 samples.

Results

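The 7 genes described here encode the classical subunits of AP-1, a family of transcription factors: the FOS genes (FOS, FOSB, FOSL1 and FOSL2) and the JUN genes (JUN, JUNB and JUND). They were taken by gene symbol from the 56269 genes of the deposited table, and all 7 were among the 13686 genes that were tested. RNA was sequenced from IMR90 cells, human lung fibroblasts of 1 primary line, in 6 groups of 3 replicates (18 libraries). Before collection or oxidant, the cells received either PBS or 20 µg/ml of hyaluronan (HA) from the skin fibroblasts of the naked mole-rat for 6 h. This HA had been treated with inactivated hyaluronidase in the cNSF-HA preparation and partly fragmented with active hyaluronidase in the fNSF-HA preparation. The PBS, cNSF-HA and fNSF-HA cells without oxidant were collected after the pre-incubation. The PBS, cNSF-HA and fNSF-HA cells with oxidant were exposed to 200 µM tBHP, an organic hydroperoxide, for 1 h and collected 6 h after the exposure began. A tBHP response is therefore also a difference of 6 h in the time of collection, and the effects of tBHP and of time cannot be told apart in these groups.

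AP-1 proteins are basic leucine zipper (bZIP) factors that bind DNA as dimers. JUN proteins pair with each other or with a FOS protein, whereas FOS proteins need a partner. The dimers bind the sequence TGAGTCA, called the TRE, and, with some partners, the related CRE. In fibroblasts, FOS and JUN are known as immediate early genes that respond to serum, growth factors and stress, and FOSL1 is known as a FOS family member that stays expressed in growing cells.

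The promoter windows below show where such sequences lie in the AP-1 genes themselves. RefSeq windows from 250 bases before to 50 bases after the start site (GRCh38.p14) matched 6 of the 7 genes (not FOSL1). Capitals mark the motif, each line reads 5′ to 3′ on the strand of the gene, and positions are counted from the start site. The JUN lines carry the pair of CRE-like elements known from this promoter, the JUND line a full CRE, the FOSL2 line a TRE (TGACTCA, which reads TGAGTCA on the other strand), and the last 3 lines a TATA box.
JUN, chr1:58784098-58784123, minus strand, motif at -67 to -60: gccttggggTGACATCAtgggctatt
JUN, chr1:58784217-58784242, minus strand, motif at -186 to -179: agcggagcaTTACCTCAtcccgtgag
JUND, chr19:18281806-18281831, minus strand, motif at -200 to -193: ccgcccccaTGACGTCAacccacaag
FOSL2, chr2:28392853-28392877, plus strand, motif at 4 to 10: ccattgtagTGACTCAtctcgggca
FOS, chr14:75278785-75278810, plus strand, motif at -33 to -28: aaacgcttgtTATAAAagcagtggct
FOSB, chr19:45467956-45467981, plus strand, motif at -30 to -25: gtcccgggcaTATAAAtacaggctgg
JUNB, chr19:12791445-12791470, plus strand, motif at -31 to -26: actagcgcggTATAAAggcgtgtggc

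Both strands of 35116 windows were searched for these letters, and the 7 matches shown do not overlap each other. The windows of a single chromosome without an AP-1 gene were left out of the 35116. TGACATCA stood in 2.61% of the windows, TTACCTCA in 0.715%, TGACGTCA in 1.85%, TGAGTCA in 4.95% and TATAAA in 11.5%. The CAAT box CCAAT (34.6% of windows) was found in JUN, JUNB and JUND, and the GC box GGGCGG (44.95% of windows) in FOS, FOSB, FOSL2, JUN and JUND. The CArG box, to which serum response factor binds, stood in 1.29% of the windows and in none of the 6. Sequence further than 250 bases before the start site was not searched, so sites there would be missed. The matches are a description of these windows and not of bound sites.

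In GENCODE release 29 (GRCh38), FOS lies at chr14:75278774-75282230, FOSB at chr19:45467995-45475179 and FOSL1 at chr11:65892049-65900573. FOSL2 lies at chr2:28392448-28417312, JUN at chr1:58780788-58784327, JUNB at chr19:12791496-12793315 and JUND at chr19:18279760-18281622. JUN and JUNB each form 1 exon. These gene models begin upstream of the RefSeq start site by 280 bases for JUN, 54 for FOS and 410 for FOSL2, so that the JUN and FOSL2 motifs and the FOS TATA box printed above lie within them. For FOSB, JUNB and JUND the starts of the annotations differ by at most 10 bases. JUNB shares 259 exonic bases with HOOK2 on the other strand, and the library kit does not mark strand, so reads in this stretch belong to either gene. HOOK2 itself had between 71.3 and 161 normalized counts per library and was not called in any tBHP response (log2 changes of 0.19, 0.26 and -0.37 in PBS, cNSF-HA and fNSF-HA cells). The longest transcripts of JUNB and JUND were among the richest in GC, with 64.9% and 69.7%, against a median of 47.9% over the genes tested.

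The libraries held 20261103 to 26287660 reads counted on genes, and the counts of the 7 genes ranged from 21 reads (FOS) to 9990 reads (FOSL1) in a library. Values below are normalized counts, that is, reads divided by the DESeq2 size factor of the library. Changes are on the scale log2(normalized count + 1), which understates the changes of low genes, and a gene was called at an adjusted p under 0.05 with limma. Over all genes, the median SD within groups was 0.076 without tBHP and 0.206 after tBHP. Part of that spread ran with the GC content of transcripts. In the tenth of genes with the highest GC content (1253 genes), the libraries after tBHP deviated from their common mean by a median of -0.78 (fNSF-HA replicate 2) to 0.33 (cNSF-HA replicate 3). The 10 fibroblast markers were all detected, with a summed level of 1017100 to 1362100 normalized counts. Of the markers of other cells, 3 of 8 epithelial, 2 of 5 endothelial and 0 of 6 leukocyte genes reached a mean of 10, and KRT5, SFTPB, SFTPC and CDH5 were at 0. The summed epithelial level was 2087 to 2347 without and 1235 to 2190 after tBHP. The summed endothelial level was 1286 to 1460 and 713 to 1101, and the summed leukocyte level 3.73 to 8.80 and 4.38 to 19.0. LUM, a fibroblast marker, fell after tBHP by 1.33 in PBS (565 ± 7.3 to 225 ± 0.56 normalized counts), 1.18 in cNSF-HA and 0.67 in fNSF-HA cells, and was higher in fNSF-HA than in PBS cells after tBHP by 0.60 (adjusted p = 0.0261). Of the 10 fibroblast markers, 1 rose (PDGFRB), 3 fell (LUM, COL3A1 and DCN) and 6 were not called in the PBS response, in which 24.2% of all genes were called higher and 26.9% lower. PDGFRB rose by 0.60 in PBS, 0.43 in cNSF-HA and 0.38 in fNSF-HA cells. The part of the marker lists in the results below was not tested.

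Per kb of exon, FOSL1 made up most of the AP-1 mRNA of these fibroblasts. In PBS cells without tBHP its share of the summed level of the 7 genes was 62.5% ± 0.17 (SD, n = 3), followed by JUN with 19.2% ± 0.14, JUNB with 8.36% ± 0.31, FOSL2 with 6.21% ± 0.18 and JUND with 3.51% ± 0.066. FOS, with 0.129% ± 0.034, and FOSB, with 0.0914% ± 0.0060, were the lowest. The ranges of neighbours in this order did not overlap over the 3 libraries, and the lowest FOS share (0.0983%) lay next to the highest FOSB share (0.0955%).

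After tBHP the make-up shifted towards the JUN genes in PBS cells. The FOSL1 share was 54.2% ± 0.50 and the FOSL2 share 4.66% ± 0.11, whereas the JUN share was 22.4% ± 0.31, the JUNB share 10.1% ± 0.23 and the JUND share 8.06% ± 0.36. FOS and FOSB had shares of 0.293% ± 0.015 and 0.260% ± 0.033, and their ranges overlapped. The 4 FOS genes together went from 68.9% ± 0.27 to 59.4% ± 0.52 in PBS cells and from 68.5% ± 0.55 to 60.2% ± 1.6 in cNSF-HA cells. After fNSF-HA they went from 69.3% ± 0.82 to 65.1% ± 4.4, with single libraries between 60.04% and 68.4%. The summed level per kb of the 7 genes was 6285 ± 142 normalized counts in PBS cells and 9138 ± 964 after tBHP, 6464 ± 206 and 9056 ± 747 after cNSF-HA, and 6239 ± 151 and 7572 ± 1630 after fNSF-HA. In fNSF-HA cells after tBHP, the ranges of JUNB, JUND and FOSL2 overlapped, so that their order was not resolved there. Shares depend on the exon lengths of the annotation and were not tested.

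**Figure D1:**
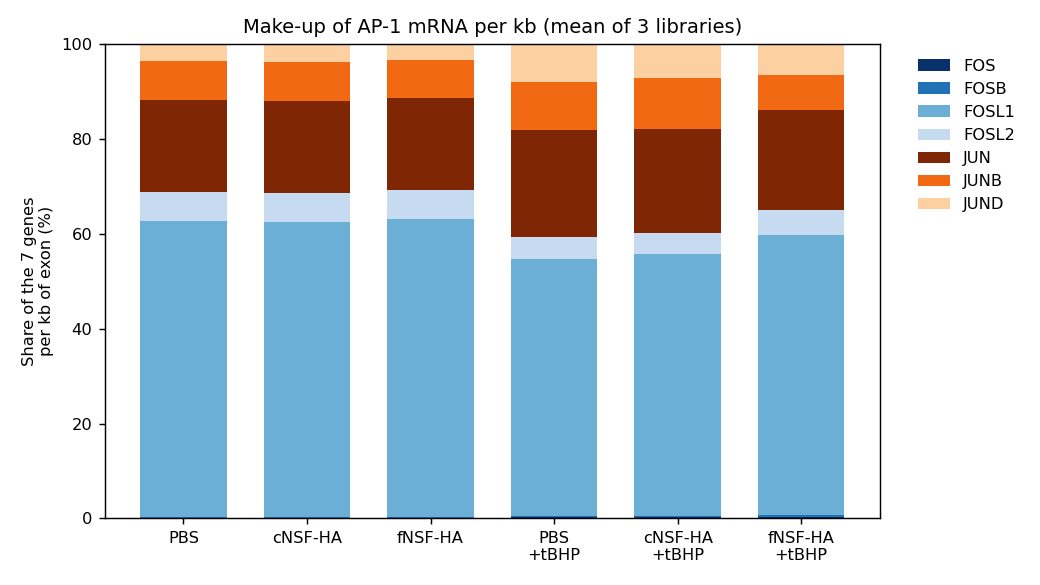
Stacked bars give the mean share of each gene in the summed level of the 7 AP-1 genes per kb of exon (%), for the 6 groups of 3 libraries each (PBS, cNSF-HA and fNSF-HA, without and with tBHP). FOSL1 is the widest segment in every group (62.5% in PBS cells and 54.2% after tBHP), the JUND segment goes from 3.51% to 8.06% in PBS cells, and FOS and FOSB are barely visible at the base.

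The first question was which AP-1 genes responded to tBHP. In PBS cells, 6 of the 7 genes rose (all but FOSL2) and none fell, where 51.1% of all genes tested were called (24.2% higher and 26.9% lower). In cNSF-HA cells the same 6 genes rose, with 50.8% of all genes called (24% higher and 26.8% lower). In fNSF-HA cells FOS, FOSB, JUN and JUND rose, with 41.9% of all genes called (19.2% higher and 22.7% lower). Without fNSF-HA replicate 2 after tBHP, 6 of the 7 genes were called there, with 50.6% of all genes. Without replicate 3 it was 3 of the 7, with 40.9% of all genes. Calls were thus common among all genes, and the median change over all genes tested was 0.0043 in PBS, -0.00053 in cNSF-HA and -0.034 in fNSF-HA cells. The 3 replicates after tBHP lay above the 3 without tBHP for 6 of the 7 genes in PBS cells (31.8% of all genes) and in cNSF-HA cells (31.4%), and for FOS, FOSB and JUND in fNSF-HA cells (22.6%). None of the 7 lay wholly below, as did 32%, 32.3% and 26.2% of all genes.

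FOSB, which encodes a FOS protein with strong activating regions, had the largest change of the 7 genes in each pre-incubation. In PBS cells it had 33.8, 29.9 and 31.995 normalized counts without tBHP and 136, 110.0 and 150 after tBHP (replicates 1 to 3). In cNSF-HA cells the values were 28.6, 23.5 and 26.9 without and 118, 125 and 128 after tBHP, and in fNSF-HA cells 29.4, 25.6 and 25.2 without and 132, 115 and 113 after tBHP. The groups with and without tBHP were far apart in every pre-incubation. The change was 2.01 ± 0.15 (SE, adjusted p = 5.09e-09) on the log2 scale in PBS cells, a 4.02-fold rise. It was 2.19 after cNSF-HA (adjusted p = 1.82e-09) and 2.12 after fNSF-HA (adjusted p = 2.78e-09). Over the 18 other settings and left-out libraries the rise in PBS cells stayed between 1.76 and 2.13.

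FOS, the founding member of the family and a typical immediate early gene, remained at low counts 6 h after the exposure began. In PBS cells it had 20.3, 25.2 and 32.9 normalized counts without tBHP and 90.8, 81.7 and 86.4 after tBHP. In cNSF-HA cells it had 30.5, 23.5 and 29.98 without and 93.8, 90.3 and 115 after tBHP. In fNSF-HA cells it had 21.6, 26.6 and 27.0 without and 94.7, 63.8 and 100.2 after tBHP, and replicate 2 stood below the other two. No library without tBHP reached any library after tBHP. FOS changed by 1.71 ± 0.20 (SE, adjusted p = 1.98e-06) after PBS, by 1.80 after cNSF-HA (adjusted p = 1.29e-06) and by 1.72 after fNSF-HA (adjusted p = 2.32e-06).

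JUND, whose protein is often described as restraining growth in fibroblasts, showed the largest rise among the JUN genes. In PBS cells it had 420.0, 422 and 392 normalized counts without tBHP and 1447, 1253 and 1406 after tBHP. In cNSF-HA cells it had 472, 437 and 440.4 without and 1022, 1039 and 1619 after tBHP, with replicate 3 well above the other two. In fNSF-HA cells it had 421, 332 and 430 without and 795, 792 and 1153 after tBHP, and again replicate 3 was the highest. The groups with and without tBHP did not overlap in any pre-incubation. JUND rose by 1.73 ± 0.16 (SE, adjusted p = 1.09e-07) after PBS, 1.41 after cNSF-HA (adjusted p = 1.42e-06) and 1.20 after fNSF-HA (adjusted p = 1.06e-05). With the GC and length trend of each library removed, the rises were 1.29, 0.93 and 1.21. The trend was taken from deviations from the mean over all 18 libraries. Its removal therefore also takes out any part of the tBHP response that runs with GC or length.

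JUN, the main partner of the FOS proteins, had 4358, 4294 and 4185 normalized counts in PBS cells without tBHP and 7970, 6634 and 7146 after tBHP. In cNSF-HA cells it had 4468, 4373 and 4518 without and 6576, 7004 and 7403 after tBHP, and in fNSF-HA cells 4378, 4142 and 4236 without and 5383, 4160 and 7496 after tBHP. In fNSF-HA cells, replicate 2 after tBHP lay within the range without tBHP, whereas replicate 3 was in the range of the PBS libraries after tBHP. JUN rose by 0.76 ± 0.13 (SE, adjusted p = 0.000137) after PBS, by 0.65 after cNSF-HA (adjusted p = 0.00059) and by 0.38 after fNSF-HA (adjusted p = 0.0302). The rises were 0.53, 0.43 and 0.30 with the GC and length trend removed, and all 3 were called (adjusted p of 1.09e-06, 1.93e-05 and 0.000958). In that setting 57.8%, 56.6% and 56.1% of the genes with a GC value were called. The rise in fNSF-HA cells lost its call with quantile normalization (0.33, adjusted p = 0.0502), without the filter on low genes (adjusted p = 0.0598), with only the compared groups (adjusted p = 0.179) and without any of 5 of the 6 libraries compared. It was 0.15 (adjusted p = 0.188) without fNSF-HA replicate 3 after tBHP and 0.58 (adjusted p = 5.93e-05) without replicate 2. Over all 18 settings and left-out libraries its adjusted p ran from 5.93e-05 to 0.188.

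JUNB, which encodes a JUN protein with weaker activating capacity than JUN, varied most between replicates after tBHP. In PBS cells it had 970.4, 1003 and 896 normalized counts without tBHP and 1897, 1525 and 1618 after tBHP. In cNSF-HA cells it had 979, 956 and 994 without and 1571, 1668 and 2124 after tBHP, and in fNSF-HA cells 911, 871 and 974.6 without and 1010.2, 515 and 1731 after tBHP. The fNSF-HA libraries after tBHP thus lay below (replicate 2), just above (replicate 1) and well above (replicate 3) those without tBHP. Pooled over the groups, its SD between replicates was 0.069 (log2) without tBHP and 0.53 after tBHP. JUNB rose by 0.81 ± 0.26 (SE, adjusted p = 0.0147) in PBS cells and by 0.86 in cNSF-HA cells (adjusted p = 0.0102), and its change in fNSF-HA cells was 0.07 (95% interval -0.47 to 0.62, adjusted p = 0.846) and 0.02 with the GC and length trend removed. Without fNSF-HA replicate 2 after tBHP that change was 0.53 (adjusted p = 0.00785), and without replicate 3 it was -0.35 (adjusted p = 0.139), with adjusted p between 0.00785 and 1 over its settings. The rise in PBS cells lost its call without PBS replicate 1 after tBHP (0.72, adjusted p = 0.0588), and that in cNSF-HA cells without cNSF-HA replicate 3 after tBHP (0.73, adjusted p = 0.0542). With the GC and length trend removed, the rises were 0.43 in PBS and 0.42 in cNSF-HA cells (adjusted p = 0.00056 and 0.000871).

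FOSL1, whose protein FRA-1 lacks the strong activating region of FOS, changed little for its high level. In PBS cells it had 7521, 7474 and 7227 normalized counts without tBHP and 10478, 8342 and 9235 after tBHP. In cNSF-HA cells it had 7866, 7260.3 and 7644 without and 8962, 9167 and 10155 after tBHP, and in fNSF-HA cells 7589, 7318 and 7280.3 without and 8600, 6952 and 9575 after tBHP. The groups overlapped only in fNSF-HA cells, where replicate 2 after tBHP was the lowest of the 6 libraries. FOSL1 rose by 0.33 ± 0.096 (SE, adjusted p = 0.0082) in PBS cells and by 0.31 in cNSF-HA cells (adjusted p = 0.0119), and its change in fNSF-HA cells was 0.17 (95% interval -0.04 to 0.37, adjusted p = 0.177). Removal of the GC and length trend also takes out any part of the tBHP response that runs with GC or length. With that trend removed, the FOSL1 changes were 0.02 (adjusted p = 0.701), -0.08 (adjusted p = 0.18) and 0.06 (adjusted p = 0.311), so that the rise was not called and turned in cNSF-HA cells. It also lost its call without PBS replicate 1 after tBHP (0.24, adjusted p = 0.0557), without cNSF-HA replicate 2 (0.28, adjusted p = 0.050001) or replicate 3 after tBHP (0.26, adjusted p = 0.0546), and in cNSF-HA cells with quantile normalization (0.22, adjusted p = 0.0591). In fNSF-HA cells it was 0.30 (adjusted p = 0.00435) without replicate 2 after tBHP. Over all settings the adjusted p ran from 0.00254 to 0.701 in PBS, from 0.00328 to 0.18 in cNSF-HA and from 0.00435 to 0.608 in fNSF-HA cells.

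FOSL2, which encodes FRA-2, was the member without a called response. It had between 2728 and 2918 normalized counts in the 9 libraries without tBHP and between 2366 and 3367 in the 9 after tBHP, with the lowest value in cNSF-HA replicate 3 and the highest in PBS replicate 1. Its changes were 0.12 (95% interval -0.08 to 0.31) in PBS, -0.02 (-0.21 to 0.18) in cNSF-HA and 0.02 (-0.18 to 0.21) in fNSF-HA cells, with adjusted p of 0.30, 0.893 and 0.906. None of 18 settings and left-out libraries called it in any pre-incubation.

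**Figure D2:**
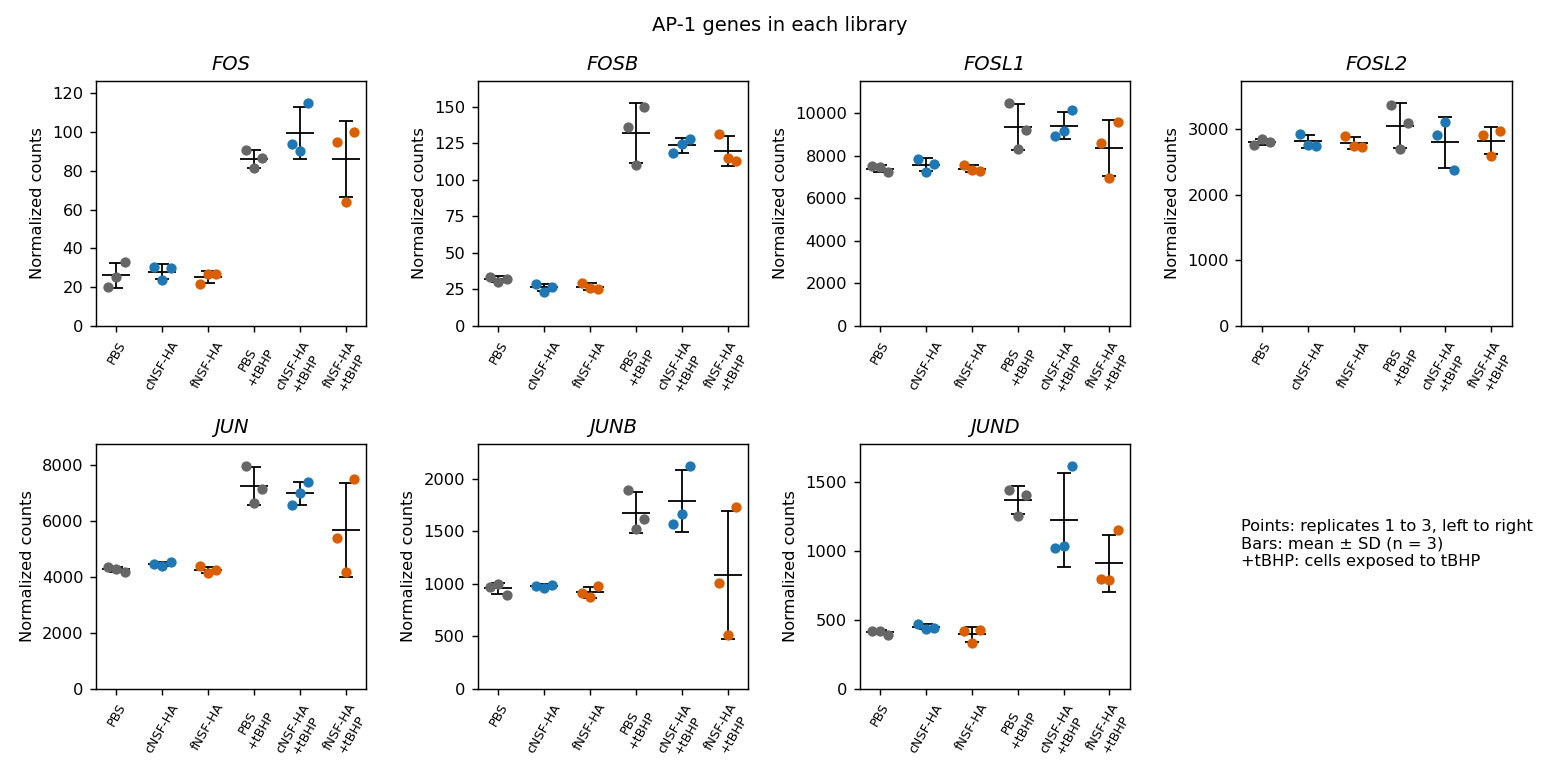
Each panel plots the normalized counts (y axis, from 0) of 1 AP-1 gene in the 6 groups (x axis: PBS, cNSF-HA and fNSF-HA, without and with tBHP), with 1 point per library and bars for the mean ± SD of 3 replicates. FOSB sits between 23.5 and 33.8 without tBHP and between 110.0 and 150 after it, whereas JUNB in fNSF-HA cells after tBHP spreads from 515 to 1731.

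**Figure D3:**
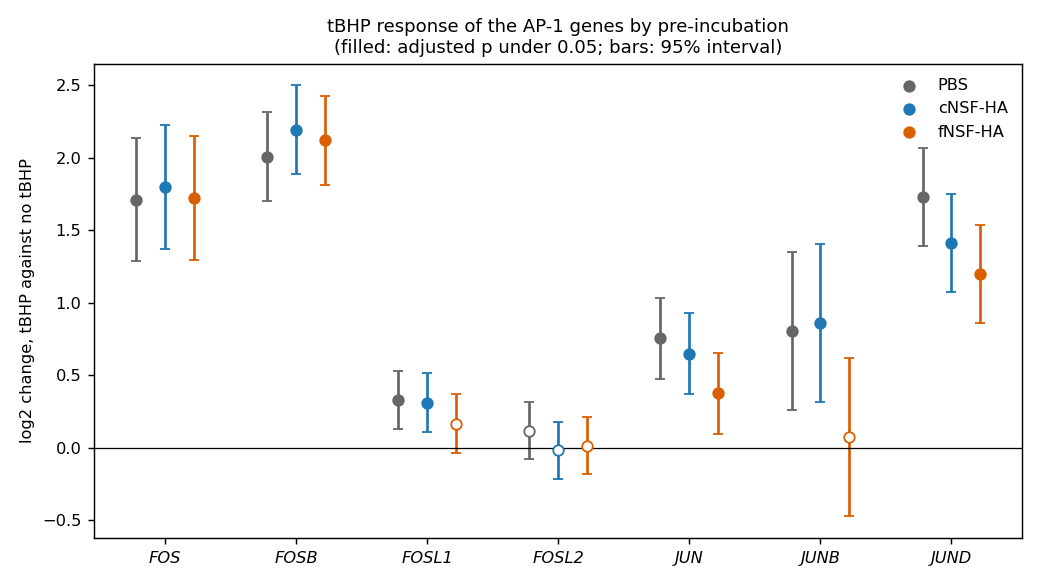
Points give the log2 change after tBHP (y axis) of each AP-1 gene (x axis) in PBS, cNSF-HA and fNSF-HA cells, with 95% intervals from limma and filled points for an adjusted p under 0.05. FOS, FOSB and JUND lie above 1 in every pre-incubation, FOSL2 lies near 0, and the fNSF-HA points of JUN and JUNB are the lowest of their genes (0.38 and 0.07).

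The deviations of several AP-1 genes ran with the GC deviation of the library. Over the 9 libraries after tBHP, Pearson's r between the deviation of a gene and the median deviation of the high-GC transcripts was 0.99 for JUNB, 0.97 for JUN, 0.96 for FOSL1, 0.85 for FOS and 0.76 for JUND, and 0.30 for FOSL2 and 0.27 for FOSB. Over the 9 libraries without tBHP, where the GC deviation lay between -0.072 and 0.076, it was 0.88 for JUN, 0.87 for JUND, 0.70 for JUNB, 0.65 for FOSL1, 0.34 for FOSL2, 0.10 for FOS and -0.02 for FOSB. The points share libraries with the gene groups compared, and differences between the pre-incubations are part of these deviations. After tBHP the GC deviation was -0.19, -0.78 and 0.17 in the fNSF-HA libraries (replicates 1 to 3), 0.31, -0.020 and 0.018 in the PBS libraries and 0.11, 0.13 and 0.33 in the cNSF-HA libraries. The part of this deviation in the differences between pre-incubations was not tested, and values with the GC and length trend removed are given for the JUN genes and FOSL1 below.

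**Figure D4:**
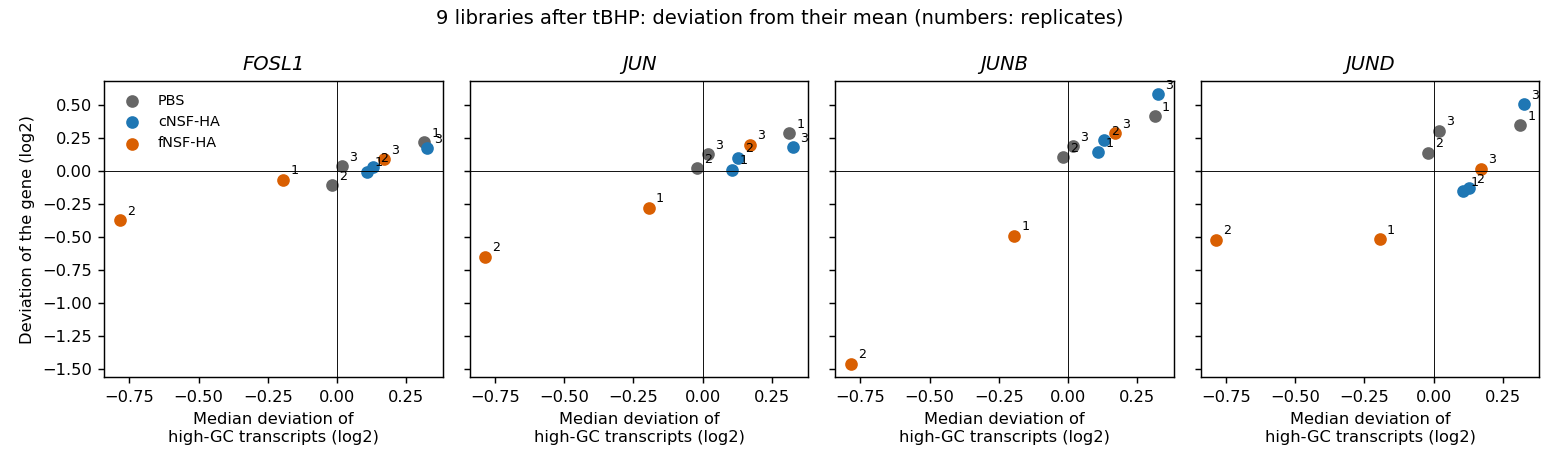
For FOSL1, JUN, JUNB and JUND, the deviation of the gene from its mean over the 9 libraries after tBHP (y axis, log2) is plotted against the median deviation of the tenth of transcripts with the highest GC content (x axis, log2), with colours for the pre-incubation and replicate numbers beside the points. JUNB follows the x axis closely (r = 0.99), with fNSF-HA replicate 2 alone at the lower left, at -0.78 on the x axis.

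The second question was whether the pre-incubation changed the AP-1 genes after tBHP. None of the 7 genes was called in any of the 3 comparisons with limma, where 0% of all genes were called between cNSF-HA and PBS (1183 genes at an unadjusted p under 0.05), 0.139% between fNSF-HA and PBS (19 genes called, 0.117% higher and 0.0219% lower) and 0% between cNSF-HA and fNSF-HA (4412 genes at an unadjusted p under 0.05). In these comparisons edgeR called no AP-1 gene (0%, 0.263% and 0% of all genes). DESeq2 called JUND in fNSF-HA against PBS cells (given below) and gave no adjusted p for FOS in cNSF-HA against fNSF-HA cells. Of the genes with an adjusted p, DESeq2 called 0.0728% between cNSF-HA and PBS and 7.37% between cNSF-HA and fNSF-HA (2.42% higher and 4.94% lower). In the latter comparison its adjusted p was 0.0669 for JUND, 0.0695 for JUNB and 0.107 for JUN. The JUN genes were lower in fNSF-HA than in PBS cells by values that missed the threshold. JUN differed by -0.39 (95% interval -0.67 to -0.11, adjusted p = 0.137), JUNB by -0.79 (-1.34 to -0.25, adjusted p = 0.13) and JUND by -0.60 (-0.94 to -0.27, adjusted p = 0.091). At an unadjusted p under 0.05 these were 3 of the 7 AP-1 genes and 3102 of the 13686 genes. JUND was the member whose 3 fNSF-HA libraries all lay below the 3 PBS libraries after tBHP, which held for 5.11% of all genes (6.86% lay wholly above). The FOS genes differed by -0.17 to -0.03, with adjusted p between 0.298 and 0.949.

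The estimates for JUN and JUNB moved most with fNSF-HA replicates 2 and 3 after tBHP, whereas JUND stayed between -0.78 and -0.51 with any library left out. Without replicate 3 the differences from PBS cells were -0.61 for JUN, -1.21 for JUNB, -0.78 for JUND and -0.27 for FOSL1 (adjusted p of 0.00128, 0.00128, 0.00278 and 0.0356), and all 4 genes were called, as were 29.4% of all genes. Without replicate 2 they were -0.19, -0.34, -0.51 and -0.04 (adjusted p of 0.591, 0.523, 0.289 and 0.933). With the GC and length trend removed they were -0.23 for JUN, -0.41 for JUNB and -0.04 for JUND, with adjusted p of 0.116, 0.0562 and 0.923. JUNB was called when the replicate block was added to that fit (adjusted p = 0.0382), as were 0.782% of all genes (0.303% lower). FOSL1 differed by -0.17 and turned to 0.06 (adjusted p = 0.65) with the trend removed. DESeq2 called JUND (-0.59, adjusted p = 0.0274), as it did 3.99% of the genes with an adjusted p (1.02% lower), and edgeR did not (-0.60, adjusted p = 0.108). Over all settings and left-out libraries the adjusted p of JUND ran from 0.00278 to 0.923, that of JUNB from 0.00128 to 0.656 and that of JUN from 0.00128 to 0.656.

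In cNSF-HA against fNSF-HA cells exposed to tBHP, JUNB differed by 0.88 (95% interval 0.33 to 1.42, adjusted p = 0.0981), JUND by 0.41 (0.08 to 0.75, adjusted p = 0.106) and JUN by 0.34 (0.06 to 0.62, adjusted p = 0.107). These values share the fNSF-HA libraries with the comparison above. The libraries overlapped for all 3 genes (5.07% of all genes lay wholly above and 8.29% wholly below), because replicate 3 of the fNSF-HA cells lay above at least 1 cNSF-HA library. Without that replicate the differences were 1.30, 0.59 and 0.56, and FOSL1, JUN, JUNB and JUND were called (adjusted p of 0.0209, 0.00115, 0.00115 and 0.00602) together with 40.8% of all genes. When fNSF-HA replicate 2 was left out instead, JUNB differed by 0.42, JUND by 0.32 and JUN by 0.14 (adjusted p of 0.572, 0.572 and 0.626), FOSL1 by 0.05, and 0 of all genes were called. The JUND difference was 0.20 without cNSF-HA replicate 3 after tBHP. With the GC and length trend removed, the differences were 0.36 for JUNB, 0.16 for JUN and -0.27 for JUND, and FOSL1 went from 0.18 to -0.16 (adjusted p = 0.136), so that JUND and FOSL1 turned. The FOS genes differed by -0.02 to 0.23.

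Between cNSF-HA and PBS cells after tBHP, the 7 differences lay between -0.19 (JUND, 95% interval -0.53 to 0.15) and 0.20 (FOS, -0.23 to 0.62), with adjusted p between 0.688 and 0.969. The interval was narrowest for FOSL1 and FOSL2 (-0.19 to 0.22 and -0.32 to 0.07) and widest for JUNB (-0.46 to 0.63), so a difference of up to about these sizes in either direction was not resolved. The JUND value was -0.41 without cNSF-HA replicate 3 after tBHP, -0.07 without replicate 1 and -0.32 with the GC and length trend removed, with adjusted p from 0.291 to 0.997 over its settings. With that trend removed FOSL1 differed by -0.10, JUN by -0.07 and JUNB by -0.05 (adjusted p of 0.348, 0.676 and 0.869). No AP-1 gene had groups without overlap in this comparison, against 4.57% of all genes upwards and 5.01% downwards.

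**Figure D5:**
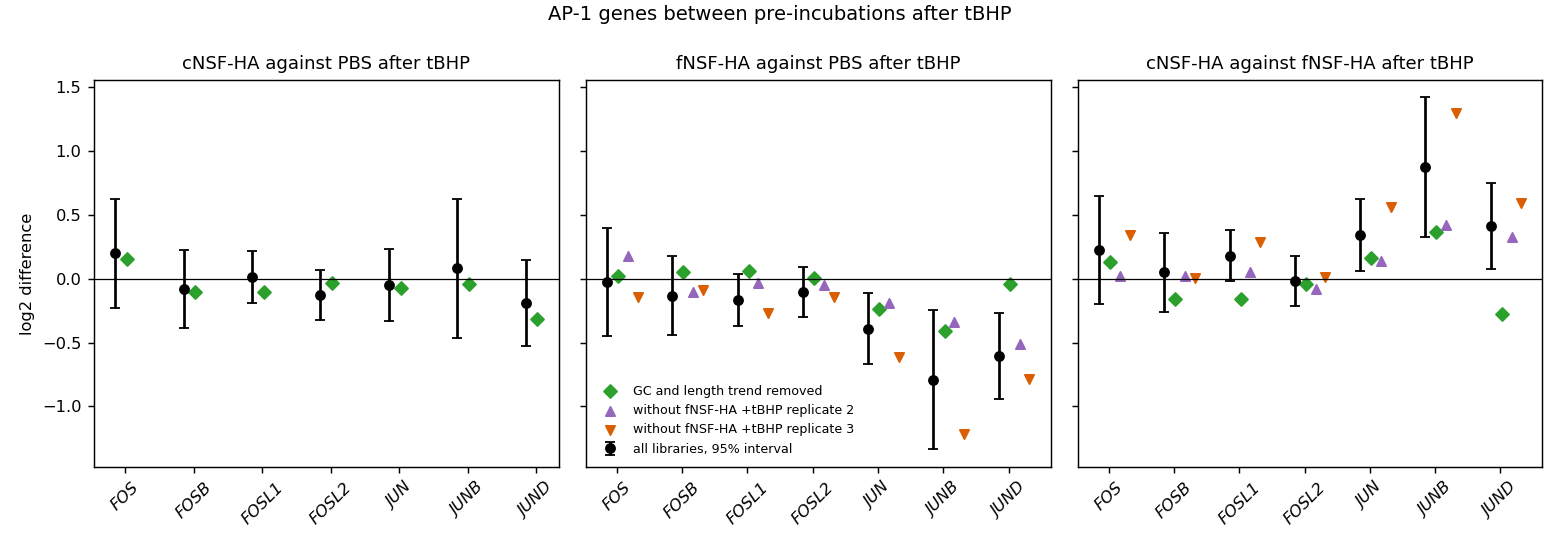
Log2 differences between pre-incubations after tBHP (y axis) for each AP-1 gene (x axis), with 95% intervals from limma over all 18 libraries (black), with the GC and length trend removed (green) and, where fNSF-HA cells are compared, without fNSF-HA replicate 2 (purple) or replicate 3 (orange) after tBHP. JUNB in fNSF-HA against PBS cells moves from -0.79 to -1.21 without replicate 3 and to -0.34 without replicate 2.

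The difference between the tBHP responses was tested as an interaction, in which no AP-1 gene and 0% of all genes were called (555, 942 and 533 genes at an unadjusted p under 0.05 for cNSF-HA against PBS, fNSF-HA against PBS and cNSF-HA against fNSF-HA). The response in fNSF-HA cells differed from that in PBS cells by -0.73 for JUNB (95% interval -1.51 to 0.04), by -0.53 for JUND (-1.01 to -0.06) and by -0.38 for JUN (-0.78 to 0.02), each with an adjusted p of 0.667. When fNSF-HA replicate 2 after tBHP was left out, these values were -0.28, -0.44 and -0.18, and without replicate 3 they were -1.16, -0.71 and -0.60 (adjusted p of 0.0657, 0.0719 and 0.0657). After removal of the GC and length trend they were -0.41, -0.08 and -0.23 (adjusted p of 0.601, 0.963 and 0.668). Thus JUNB and FOSL1, called in PBS and cNSF-HA cells and not in fNSF-HA cells, were not shown to respond differently between them. No AP-1 gene was called with edgeR (0% of all genes throughout) or DESeq2 (0.0438% in fNSF-HA against PBS and 0% in the others). At an unadjusted p under 0.05 with limma stood JUND in fNSF-HA against PBS (0.0304) and JUNB in cNSF-HA against fNSF-HA (0.0459). The latter difference was 0.79 (adjusted p = 0.71). It was 0.33 when fNSF-HA replicate 2 after tBHP was left out, 1.21 (adjusted p = 0.0803) when replicate 3 was, and 0.39 (adjusted p = 0.804) after removal of the GC and length trend. That removal moved JUN from 0.27 to 0.13 and JUND from 0.22 to -0.28 in the same comparison. Between the cNSF-HA and PBS responses it moved JUN from -0.11 to -0.10, JUNB from 0.05 to -0.02 and JUND from -0.32 to -0.36. The FOSL1 differences moved from -0.02 to -0.10 (cNSF-HA against PBS), from -0.16 to 0.04 (fNSF-HA against PBS) and from 0.14 to -0.14 (cNSF-HA against fNSF-HA). For FOS and FOSB the differences between responses lay between 0.01 and 0.19, with intervals from -0.59 to 0.69.

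Without tBHP, none of the 7 genes was called between the pre-incubations, where 0% of all genes were called (126, 109 and 206 genes at an unadjusted p under 0.05 in the 3 comparisons), and the differences lay between -0.27 and 0.20. The unadjusted p of the AP-1 genes was 0.0804 or higher, and edgeR and DESeq2 called 0 of them. Of all genes, edgeR called 0% in each comparison, and DESeq2 called 0.0219% in fNSF-HA against PBS and 0% in the others. FOSB was lower in all 3 cNSF-HA libraries (23.5 to 28.6) and in all 3 fNSF-HA libraries (25.2 to 29.4) than in the 3 PBS libraries (29.9 to 33.8), by -0.27 (unadjusted p = 0.0804) and -0.25 (unadjusted p = 0.107). Both comparisons share the PBS libraries, and such gaps downwards were found for 8.33% and 4.82% of all genes. JUN (4373 to 4518 against 4185 to 4358) and JUND (437 to 472 against 392 to 422) were higher in all 3 cNSF-HA libraries than in the PBS libraries, by 0.06 and 0.13, as were 6.89% of all genes. JUND was also higher in all 3 cNSF-HA libraries than in the fNSF-HA libraries (332 to 430), by 0.20, as were 7.91% of all genes. After removal of that trend with GC and length, the libraries overlapped in these JUN and JUND comparisons (0.03 for JUN, 0.04 and 0.0085 for JUND), whereas FOSB remained below PBS in every library (-0.30 after cNSF-HA and -0.24 after fNSF-HA). The share of all genes with such gaps after that removal was not computed. No member showed the opposite gaps, an increase in fNSF-HA over PBS cells (9.17% of all genes) or a decrease in cNSF-HA below fNSF-HA cells (17.1%).

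The genes around AP-1 were grouped in 5 lists, whose counts in PBS cells stand beside 24.2% of all genes higher and 26.9% lower. The lists were chosen with earlier results of these data known, and their counts were not tested against these shares. Of the 14 kinases upstream of AP-1, 4 rose and 6 fell after tBHP in PBS cells, with a median change of -0.21. The number that rose was near the share of all genes, and the number that fell was above it. MAP2K2 and MAP2K1, which activate ERK, rose by 0.60 and 0.35 (adjusted p = 0.00516 and 3.35e-05), and MAP2K7, which activates JNK, rose by 0.55 (adjusted p = 0.00195). MAPK8, which encodes the JUN kinase JNK1, fell by 0.68 (adjusted p = 1.32e-05), MAP3K1 by 0.81 (adjusted p = 0.00284) and MAP2K6, an activator of p38, by 0.77 (adjusted p = 0.0423). Transcript levels do not give the activity of these kinases.

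Of the 12 bZIP partners and relatives of AP-1, 8 were tested, 5 rose and none fell in PBS cells, with a median of 0.66, above the share of all genes that rose. BATF was at 0 in every library, and BATF2 and MAF were below the mean of 10. ATF3, a stress-induced factor that pairs with JUN proteins, had the largest rise of the lists, from 37.5 ± 3.7 to 618 ± 46 normalized counts in PBS cells (SD, n = 3). Its change was 4.01 (adjusted p = 3.26e-13) in PBS, 3.91 in cNSF-HA and 4.30 in fNSF-HA cells. JDP2, a repressor that pairs with JUN, rose by 1.60 (adjusted p = 5.9e-09), and MAFG, a small MAF protein, by 1.46 (adjusted p = 1.36e-10).

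Of the 11 factors acting at the FOS and JUN promoters, 4 rose and 3 fell in PBS cells (median 0.01), not far from the shares of all genes. MEF2D, which binds the JUN promoter, rose by 1.15 (adjusted p = 6.33e-08), MKL1, a coactivator of serum response factor, by 0.42 (adjusted p = 0.00233) and STAT3 by 0.38 (adjusted p = 0.000221). MEF2C fell by 1.01 (adjusted p = 2.12e-05), CREB1 by 0.36 (adjusted p = 0.0435) and SRF itself by 0.35 (adjusted p = 0.00451). Of the 12 genes of mRNA decay and protein turnover of FOS and JUN, 3 rose, near the share of all genes, and 1 fell (median 0.08). ZFP36, which encodes a protein that destabilizes AU-rich mRNAs, rose by 1.36 (adjusted p = 3.82e-07), its relative ZFP36L1 by 0.34 (adjusted p = 0.000738) and RFWD2, which encodes the ubiquitin ligase COP1, by 0.28 (adjusted p = 0.00137). ITCH, a ubiquitin ligase for JUN, fell by 0.33 (adjusted p = 0.019).

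Of the 22 widely described AP-1 targets, 21 were tested (MMP9 was below the mean of 10), and 13 rose and 3 fell in PBS cells, with a median of 0.34. More of these genes rose and fewer fell than among all genes, in a list chosen with earlier results of these data known. HMOX1, the heme-degrading enzyme and also a target of NRF2, rose by 2.96 (adjusted p = 3.26e-13), from 5892 ± 227 to 45959 ± 3885 normalized counts (SD, n = 3). The cytokine gene IL11 rose by 1.65 (adjusted p = 6.43e-11) and the chemokine gene CXCL8 by 1.36 (adjusted p = 0.00129), the latter at low counts (16.2 ± 1.2 to 46.0 ± 21). CCL2 fell by 1.01 (adjusted p = 0.000197) and CCND1, which encodes cyclin D1, by 0.48 (adjusted p = 3.16e-07). After cNSF-HA, 14 of the 21 targets rose and 3 fell (24% and 26.8% of all genes), and after fNSF-HA 11 rose and 3 fell (19.2% and 22.7% of all genes). In the 5 lists, no gene was called in any comparison of pre-incubations. With limma, 0.139% of all genes were called in fNSF-HA against PBS after tBHP and 0% in the others. The lists were not recomputed with libraries left out. Most of these targets have other regulators, and the lists give counts only.

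Across the 18 libraries, the AP-1 genes were most like different genes by Pearson's r of the log2 values, among 10308 genes with a mean of at least 100. For FOS these were MAP3K12, GPATCH3 and BMF (r = 0.987, 0.986 and 0.985), for FOSB SMOC1, WARS and HSPB8 (0.994, 0.993 and 0.992) and for FOSL1 GNAI2, RNF187 and HSPB1 (0.984, 0.983 and 0.982). For JUN they were TGFB1, FBRS and AKT1S1 (0.990, 0.988 and 0.987), for JUNB PRRX2, CRIP2 and SF3A2 (0.988, 0.987 and 0.985) and for JUND IER5, FIZ1 and CEBPB (0.985, 0.983 and 0.982). FOSL2 had no gene above 0.88 (KIAA0319L with 0.880, TNS1 with 0.861 and POM121 with 0.856). Among the AP-1 genes themselves, r was highest for FOS and FOSB (0.964) and for FOSL1 and JUN (0.960). For deviations from the group means in the 9 libraries after tBHP, r was highest for JUN and JUNB (0.979). The libraries share the tBHP response and its GC deviation, so these values describe the libraries only.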

How the data were processed

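RNA of IMR90 cells was measured in 18 libraries, which their labels place in 6 groups of 3. The authors used the TruSeq RNA V2 kit and sequenced single-end reads of 100 nt. The submitters' processing notes name Trimmomatic 0.32, STAR 2.5.2b, featureCounts (Subread 1.5.0-p3), DESeq2 and the build GRCh38.p7. The annotation release is not given in the sources used here. The deposited signal of a gene is its read count over the DESeq2 size factor of that library, and 100% of the values gave whole reads within 0.01 of a read. The 3 columns with a p-value, a q-value and a rank of the authors were not used. The study describes all its replicates as biological, and the labels do not say whether they were separate cultures, so p-values measure the spread between these libraries. The chi-square per degree of freedom of the counts of 18 replicate pairs was 1.47 to 70.6, and no pair was treated as 1 library.

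The 13686 genes with a mean value of at least 10 were tested on log2(value + 1) with limma 3.58.1 (R 4.3.3; mean-variance trend, 1 coefficient per group, all 18 libraries, two-sided, Benjamini-Hochberg adjustment over all genes tested, threshold 0.05) in 9 comparisons and 3 interactions. Alternatives were pseudocounts of 0.1 and 5, no filter, a minimum mean of 50, quantile normalization, an equal median log2 ratio, a replicate block, removal of each library's trend with transcript GC content and length (splines with 5 degrees of freedom, 12528 genes, 91.5%), edgeR 4.0.16 (quasi-likelihood) and DESeq2 1.42.0 on the recovered reads, each library left out, and a fit of only the compared groups. The model fits were tested on simulated data. The genes named are the 7 members, the 3 genes most like each, and of each list the 3 largest called rises and falls in PBS cells, except that some genes of the lists are not reported here. Members and lists were chosen with earlier results of these data known.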

Additional observations from a re-analysis of the deposited data

How the results depend on the processing

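The number of AP-1 genes called was recomputed 234 times and stayed within 1.5 times its value in 230. For fNSF-HA against PBS after tBHP, the count of 0 became 1 with DESeq2 (JUND, 3.99% of genes called), 1 with the GC and length trend removed together with the replicate block (JUNB, adjusted p = 0.0382, 0.782% called), and 0 to 4 with 1 library left out. For cNSF-HA against fNSF-HA after tBHP it was 0 to 4 with 1 library left out. The count of 4 in both came from leaving out fNSF-HA replicate 3 after tBHP. The cause was not tested. Pairing by replicate number required every pair of groups to correlate above 0.1, and 7 of 45 did (-0.119 to 0.333), while 13 of 18 libraries correlated best with their own number, a hint from the data only. The replicate block alone changed no count of AP-1 genes, and the genes called among all in fNSF-HA against PBS after tBHP went from 19 to 61. For that comparison, 36 genes were called with edgeR, 451 with DESeq2 and 63 with the trend removed (98 with the block added). In cNSF-HA against fNSF-HA after tBHP DESeq2 called 793 (0 with limma and edgeR), and in cNSF-HA against PBS 9.

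Of 972 values for single genes in 51 results, 894 kept their direction and their side of the threshold, 16 lost the call, 12 gained it and 50 turned. Single genes in the comparisons without tBHP, and FOS genes in the interactions, were recomputed with edgeR, DESeq2 and the GC and length trend removed, but not under the other settings. Of these interactions, removal of the trend turned FOSL1 (0.037) and FOSL2 (0.025) in fNSF-HA against PBS, and FOS (-0.0053), FOSB (-0.096) and FOSL1 (-0.14) in cNSF-HA against fNSF-HA. With edgeR, FOSB turned in cNSF-HA against fNSF-HA without tBHP (-0.023 to 0.0052). Without tBHP, removal of the GC and length trend turned 7 small differences: FOSL2 (-0.017) and JUNB (-0.027) in cNSF-HA against PBS, FOSL1 (0.020) and JUND (0.036) in fNSF-HA against PBS, and FOSL1 (-0.019), FOSL2 (-0.0011) and JUNB (-0.026) in cNSF-HA against fNSF-HA. With the GC and length trend removed, with or without the block, the tBHP response turned for FOSL2 in PBS (-0.062) and fNSF-HA cells (-0.037) and FOSL1 in cNSF-HA cells (-0.081). After tBHP, cNSF-HA against PBS turned for FOSL1 (-0.10) and JUNB (-0.045), fNSF-HA against PBS for FOS (0.022), FOSB (0.053), FOSL1 (0.057) and FOSL2 (0.0091), and cNSF-HA against fNSF-HA for FOSB (-0.16), FOSL1 (-0.16) and JUND (-0.27). The interaction turned for JUNB in cNSF-HA against PBS (-0.019) and JUND in cNSF-HA against fNSF-HA (-0.28). With edgeR, FOSL2 turned in the cNSF-HA response (0.052) and in cNSF-HA against fNSF-HA (0.010). With quantile normalization, FOSL1 turned in cNSF-HA against PBS (-0.0058) and FOS in fNSF-HA against PBS (0.014).

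With 1 library left out, the ranges that crossed 0 were -0.15 to 0.17 (FOS, fNSF-HA against PBS after tBHP), -0.10 to 0.094 (FOSL2, cNSF-HA against fNSF-HA after tBHP), and, for cNSF-HA against PBS after tBHP, -0.21 to 0.014 (FOSB), -0.063 to 0.10 (FOSL1), -0.11 to 0.021 (JUN) and -0.048 to 0.17 (JUNB). For the tBHP response they were -0.098 to 0.098 (FOSL2, cNSF-HA), -0.021 to 0.077 (FOSL2, fNSF-HA) and -0.35 to 0.53 (JUNB, fNSF-HA), and for the interactions -0.079 to 0.14 (JUNB, cNSF-HA against PBS) and -0.0021 to 0.39 (JUND, cNSF-HA against fNSF-HA). Where a library was left out, the group kept 2 libraries and shared the spread of the other groups. FOS and FOSB, with 21 to 150 reads per library, are also limited by the sampling of reads.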
